A study of Mus musculus with 2 samples.

Results

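In 34 genes of stimulated mouse macrophages, a transcript that keeps intron sequence was the leading transcript of the gene. The members are transcripts that the annotation types as retained_intron and were selected on their measured share. Each held 50% or more of its gene's TPM (an abundance per unit of transcript length, relative to all transcripts of a library) in the first of the deposited quantifications (RSEM column layout), in both libraries. Its gene stood at 20 TPM or more in both libraries with at least 1 protein_coding transcript. The annotation holds 55450 genes and 21848 retained_intron transcripts. Of these genes, 3577 met the level and the coding condition, and 2364 of them had a retained_intron transcript, 6341 in all. The 34 members are 1.44% of those 2364 genes, with 1 transcript per gene. Retained_intron transcripts of all genes held 3.42% of gene TPM in replicate 1 and 4.47% in replicate 2, and the 34 members held 12.7% and 13.2% of that. The share that chose them is given below as a description and carries no test.

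The RNA came from macrophages grown in culture from bone marrow precursors of the C57BL/6J strain, and was sequenced as polyA plus RNA from whole-cell extract. The cells were treated at 100 ng/mL for 300 min with a stimulus that the labels name as Lipid A in one field and as lipoprotein A in another. There is 1 group of 2 libraries, labelled biological replicates 1 and 2. They are separate biosamples of a shared donor record, and the labels give no genotype, sex or age and no untreated cells. No comparison of conditions was therefore possible, and the spread between the libraries may be technical. Gene rows summed to 38028201 expected counts in replicate 1 and 63649100 in replicate 2. All 9 macrophage markers were above 50 TPM in both libraries. The summed level of 6 neutrophil markers was 460 and 24.3 TPM in replicates 1 and 2, with 3 of 6 at 1 TPM or more in both and Ly6g at 0. Of 5 T cell markers only Cd4 passed 1 TPM, at 44.8 and 79.9 TPM, and B cell, erythroid, dendritic cell and fibroblast markers had 0 at that level in both libraries. In such bulk RNA, fewer cells of a type and less RNA per cell cannot be told apart. The part of other cells in the values below was not tested.

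An intron that stays in a polyadenylated RNA usually carries a stop codon, so the RNA rarely codes for the whole protein. Such RNAs can be held in the nucleus, spliced later or degraded by nonsense-mediated decay once they are translated, and regulated intron retention is known from the maturation of myeloid cells. In the GENCODE annotation the type retained_intron marks a non-coding transcript model that contains intron sequence of another transcript of its gene. Such a model is often a fragment that begins or ends inside the intron, so the type alone does not show that a whole intron was kept.

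The structure of the 34 models was read from the GENCODE M21 annotation of mm10. A whole intron of a protein_coding transcript, flanked by exon on both sides, lay in 8 members: Cd83-202, Pirb-202, Tmem132a-203, Rps20-201, Prelid1-202, Tap2-202, Ncl-202 and Sugt1-205. The background is 30.4% of all 6341 retained_intron transcripts of these genes. Of the other 26 members, 14 begin inside a coding intron and 12 end inside one. Any length of flanking exon was accepted. On the minus strand Rps20-201 begins at base 3835488 and its intron at base 3835483, so only a few exon bases precede it. That flank hardly sets it apart from the models that begin inside an intron. The 412-base intron of Tmem132a-203 ends at base 10859152, close to the transcript's end at 10859138. The 8 members hold 10 such introns, all with GT at the start and AG at the end, and all lying within the coding sequence. An in-frame stop codon was present in 9 of the 10, and Prelid1-202 was the exception. Only 4 of the 10 were a multiple of 3 bases long. Their median length was 191 bases, against 276 bases for 2674 introns held whole by other retained_intron transcripts and 1288 bases for all 44892 coding introns of these genes. In Cd83, Prelid1 and Sugt1 the kept intron was the shortest of the coding transcript.

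The introns of up to 300 bases that the 8 members keep are printed here because these bases alone set the member apart from the coding transcript at that place. They are given 5′ to 3′ on the transcribed strand in mm10, from the GENCODE M21 transcripts. Capitals mark the first and last bases of the intron (GT and AG) and the first stop codon in the reading frame of the coding transcript. Cd83 intron 1 is chr13:43785251-43785345 on the plus strand, Pirb intron 6 is chr7:3716891-3717117 on the minus strand, and Rps20 intron 1 is chr4:3835292-3835483 on the minus strand. Prelid1 intron 3 is chr13:55324445-55324526 on the plus strand, and Tap2 intron 6 is chr17:34212068-34212229 on the plus strand. Ncl intron 10 is chr1:86352320-86352509 on the minus strand, and Sugt1 intron 1 is chr14:79587867-79587953 on the plus strand.
Cd83 intron 1: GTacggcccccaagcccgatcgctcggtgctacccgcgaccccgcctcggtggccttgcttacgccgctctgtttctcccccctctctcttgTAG
Pirb intron 6: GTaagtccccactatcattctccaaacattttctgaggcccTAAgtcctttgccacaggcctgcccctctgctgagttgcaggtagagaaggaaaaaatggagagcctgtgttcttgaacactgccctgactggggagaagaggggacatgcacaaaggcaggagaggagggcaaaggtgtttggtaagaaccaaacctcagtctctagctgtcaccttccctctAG
Rps20 intron 1: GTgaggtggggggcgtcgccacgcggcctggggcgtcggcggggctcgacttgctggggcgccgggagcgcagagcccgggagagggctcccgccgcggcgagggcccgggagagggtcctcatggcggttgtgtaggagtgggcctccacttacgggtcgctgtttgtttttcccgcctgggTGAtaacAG
Prelid1 intron 3: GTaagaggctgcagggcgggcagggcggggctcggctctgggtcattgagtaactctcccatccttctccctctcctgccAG
Tap2 intron 6: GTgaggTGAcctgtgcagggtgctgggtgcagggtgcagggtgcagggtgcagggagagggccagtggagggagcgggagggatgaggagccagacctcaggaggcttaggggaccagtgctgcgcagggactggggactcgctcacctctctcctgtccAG
Ncl intron 10: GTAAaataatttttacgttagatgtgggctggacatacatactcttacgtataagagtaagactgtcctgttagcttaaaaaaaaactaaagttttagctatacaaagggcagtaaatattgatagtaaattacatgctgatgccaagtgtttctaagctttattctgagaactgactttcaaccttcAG
Sugt1 intron 1: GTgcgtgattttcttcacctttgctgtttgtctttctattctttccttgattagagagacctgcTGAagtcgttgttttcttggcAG

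The stop codon came at base 7 of the Tap2 intron and at base 2 of the Ncl intron, where it overlaps the splice donor. In Cd83 it was the last codon of the intron, at base 93, and overlaps the splice acceptor. The introns differed in composition: GC content was 71.9% in Rps20, 67.4% in Cd83 and 67.3% in Tap2, but 32.6% in Ncl and 41.4% in Sugt1. Over the 20 bases before the final AG, pyrimidines made up 95% in Cd83 and 90% in Prelid1, and 60% in Rps20, Ncl and Sugt1. Ncl-202 also keeps the neighbouring intron 9 of 492 bases, and Tmem132a-203 keeps introns of 368 and 412 bases.

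**Figure D1:**
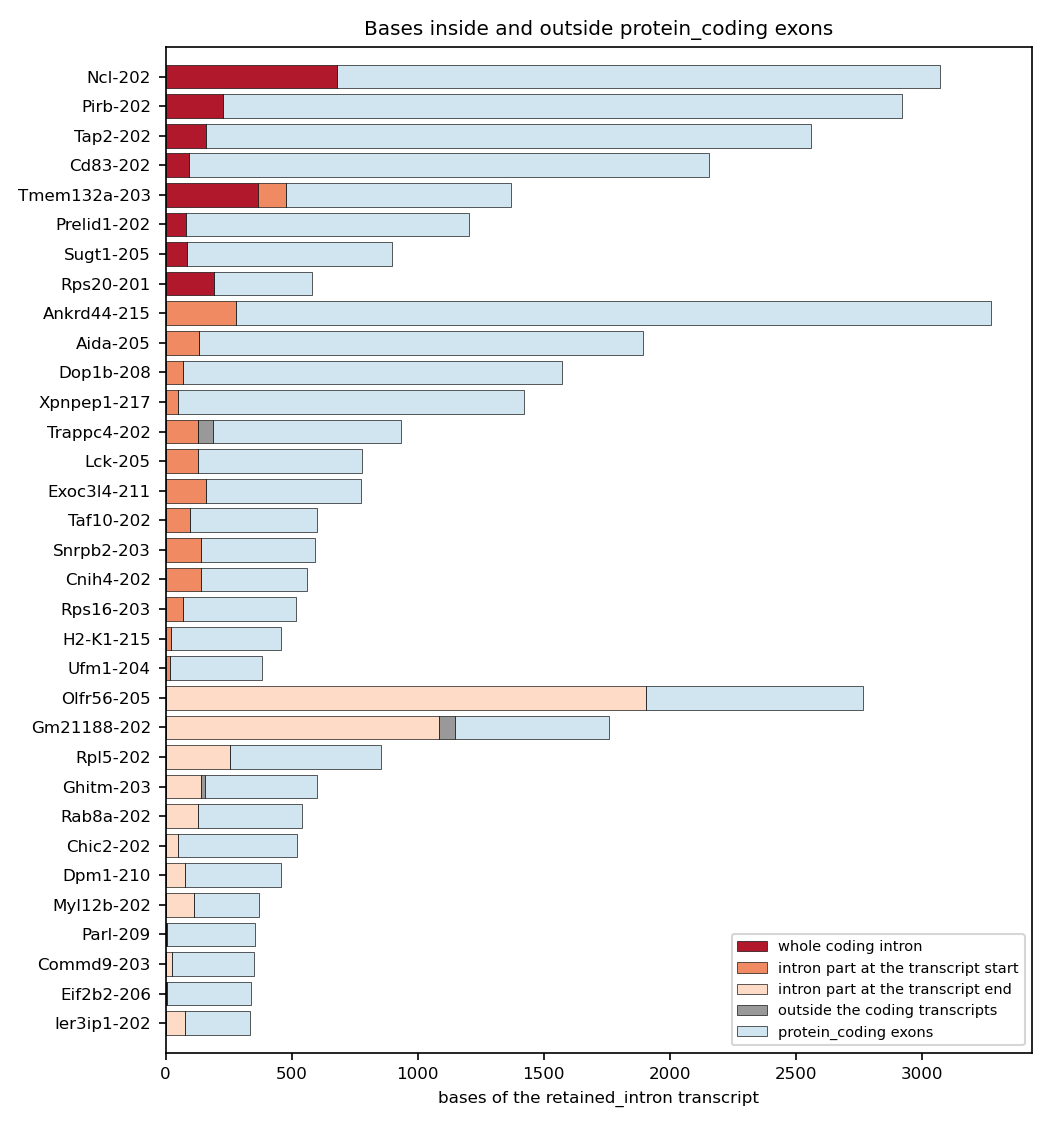
Bases of 33 of the 34 retained_intron transcripts by class, with bars stacked from intron sequence on the left to bases shared with protein_coding exons on the right. The 8 members with a whole coding intron are at the top, those that begin inside an intron in the middle and those that end inside one at the bottom; in most members the intron part is short. The 412-base intron of Tmem132a-203 is exon in another coding transcript and is drawn as exon.

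Bases outside all protein_coding exons of the gene are what a quantifier can use to tell a member from the coding transcripts by sequence content. The members had a median of 129 such bases, or 14.7% of the transcript, against 336 bases and 44.0% in the other retained_intron transcripts of these genes. Under 50 such bases were present in 5 of the 34 members (H2-K1-215, Parl-209, Eif2b2-206, Ufm1-204 and Commd9-203), against 4.9% of all 6341. H2-K1-215 had 20, and Parl-209 and Eif2b2-206 had 7 each. The largest were Olfr56-205 with 1906 and Gm21188-202 with 1149. A search for stretches of 31 bases found none private to the transcript in H2-K1-215, Pirb-202, Exoc3l4-211 and Eif2b2-206. Over 10% of such stretches also occurred in transcripts of other genes in 16 members. These included 74.8% in Rps16-203 (most with Rps16-ps2), 68.9% in Rpl5-202 (most with Gm15500), 56.9% in Pirb-202 (most with Lilra6) and 81.6% in Dpm1-210 (most with Gm20716). Gm21188-202, despite its 1149 bases outside coding exons, had 69.7%, spread over 1450 other genes, and only 26.3% private to it. The levels of these members are therefore uncertain where reads could be divided between genes. A further 10 members shared no stretch with another gene, Cd83-202 among them. The letters AATAAA, the common polyadenylation signal, were in the last 50 bases of 12 members on the transcribed strand, against 15.7% of all 6341 retained_intron transcripts and 41.5% of 12159 protein_coding transcripts of these genes. They were in 4 of the 8 members with a whole intron, in 7 of the 14 that begin inside an intron and in 1 of the 12 that end inside one.

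Levels are given next by what the genes do, with the retained_intron transcript before the sum of the protein_coding transcripts. Among the members for antigen presentation, H2-K1-215 was the highest in the set. H2-K1 is a heavy chain of MHC class I, the complex that shows peptides on the cell surface. H2-K1-215 had 1632 and 2468 TPM in replicates 1 and 2, against 1431 and 1341 TPM for the coding transcripts. Retained and coding levels were thus of similar size in replicate 1 and separate in replicate 2. Tap2 is a subunit of the transporter that feeds peptides to MHC class I. Tap2-202 had 84.5 and 89.6 TPM in replicates 1 and 2, against 30.5 and 16.5 TPM for coding transcripts. Retained TPM was close between the libraries, and coding TPM was lower in replicate 2.

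Surface receptors and a signalling gene follow. Cd83 is a surface protein that rises on activated antigen-presenting cells. Cd83-202 had 405 and 305 TPM in replicates 1 and 2, against 133 and 135 TPM for Cd83-201, the gene's 1 coding transcript. The retained share was 75.2% and 69.4%, or 72.3% ± 4.1 (SD, n = 2). Pirb encodes an inhibitory receptor that binds MHC class I. Pirb-202 had 218 and 486 TPM in replicates 1 and 2, against 73.7 and 105 TPM for its coding transcript. The kallisto layout gave a retained level of 269 and 504 TPM and a far lower coding level of 20.0 and 15.6 TPM, which was lower in replicate 2 where the RSEM layout had it higher. Lck encodes a Src-family kinase best known from T cells. Lck-205 had 27.1 and 43.5 TPM in replicates 1 and 2, against 9.35 and 11.2 TPM for coding transcripts, so the level of both was higher in replicate 2. Of the 5 T cell markers, Cd4 had 44.8 and 79.9 TPM, also higher in replicate 2, Cd8a had 0.12 and 0 TPM, and Cd3e, Cd3d and Cd3g were at 0.03 TPM or below. Their part in the Lck level was not tested.

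Several members encode proteins of membrane traffic or the cytoskeleton. Rab8a is a small GTPase of vesicle transport. Rab8a-202 had 106 and 332 TPM in replicates 1 and 2, against 34.7 and 52.7 TPM for the coding transcript. Myl12b is a regulatory light chain of non-muscle myosin, and Myl12b-202 had 107 and 179 TPM against 54.1 and 51.4 TPM. The retained level was 3.1-fold higher in replicate 2 for Rab8a and 1.7-fold for Myl12b, with smaller gaps on the coding side. Cnih4 encodes a cornichon protein of export from the endoplasmic reticulum, and Cnih4-202 had 28.6 and 67.6 TPM against 16.2 and 15.0 TPM. In replicate 1 the kallisto layout had the retained level just below the coding sum, at 15.5 against 15.8 TPM, with a share of 29.7%. Commd9 encodes a COMM-domain protein of endosomal recycling. Commd9-203 had 15.8 and 78.1 TPM in replicates 1 and 2, against 11.97 and 7.10 TPM for the coding transcript. It showed the widest gap between the libraries, and it rests on 38.5 and 375 estimated counts. In the kallisto layout it had 7.83 and 72.0 TPM against 11.3 and 7.05 TPM, so the order of the levels turned in replicate 1.

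Ribosomal and RNA-binding genes made up another group. Rps20, Rps16 and Rpl5 encode ribosomal proteins. Rps20-201 had 207.8 and 113.5 TPM in replicates 1 and 2, against 23.9 and 19.9 TPM for the coding transcript. Rps16-203 had 189 and 134 TPM against 44.0 and 26.4 TPM, and Rpl5-202 had 28.1 and 97.2 TPM against 23.4 and 32.9 TPM. In this layout Rpl5-202 was higher in replicate 2 and the others were lower. In the kallisto layout all 3 retained levels were lower in replicate 2, at 130 and 80.7 TPM for Rps20-201, 86.2 and 72.4 TPM for Rps16-203 and 1.16 and 0.52 TPM for Rpl5-202 in replicates 1 and 2. Ncl encodes nucleolin, the main nucleolar protein of ribosome assembly. Ncl-202 had 73.7 and 66.6 TPM in replicates 1 and 2, against 20.0 and 5.85 TPM for coding transcripts. Snrpb2 encodes a protein of the U2 particle of the spliceosome, and Snrpb2-203 had 27.2 and 24.1 TPM against 25.5 and 8.25 TPM. Retained levels of Ncl and Snrpb2 were close in the libraries, and the coding level carried the difference.

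Mitochondrial and other genes complete the named members. Ghitm encodes an inner mitochondrial membrane protein, and Ghitm-203 had 185 and 180.5 TPM in replicates 1 and 2 against 153 and 87.3 TPM for coding transcripts. Prelid1 encodes a lipid carrier between the mitochondrial membranes. Prelid1-202 had 116 and 131 TPM against 25.8 and 36.7 TPM. Aida-205 had 140 and 248 TPM against 90.6 and 90.1 TPM, Tmem132a-203 had 84.8 and 262 TPM against 14.5 and 34.2 TPM, and Chic2-202 had 23.0 and 45.1 TPM against 3.50 and 3.58 TPM. Gm21188-202 was close in the libraries, with 92.9 and 91.9 TPM against 11.0 and 14.1 TPM. Ankrd44 encodes a regulatory subunit of protein phosphatase 6, and Ankrd44-215 had 11.8 and 16.2 TPM against 10.8 and 11.1 TPM, the lowest in the set.

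A pair of members had nearly no coding level at all. Olfr56 is annotated as an olfactory receptor gene, and Olfr56-205 had 105 and 57.8 TPM in replicates 1 and 2 against 0.91 and 0.56 TPM for coding transcripts. This transcript ends inside a coding intron and overlaps Ifi47, an interferon-inducible GTPase gene, on the same strand. Exoc3l4-211 had 44.7 and 33.95 TPM against 0.67 and 0.53 TPM, and 44.1% of its 31-base stretches also occur in Gm10425, which lies on the opposite strand. No source states if reads were counted by strand, so reads of that pair cannot be told apart. The same limit holds where other members overlap a gene on the opposite strand. These are Tmem132a-203 (Slc15a3), Myl12b-202, Prelid1-202 (Mxd3), Gm21188-202, Tap2-202 (Gm20496 and Gm15821), Taf10-202 (Ilk) and Dop1b-208. In Tmem132a-203, 14.5% of the 31-base stretches also occur in Slc15a3. The 12 members not named by level, agreement or threshold had 16.1 to 59.1 TPM in replicate 1 and 16.4 to 52.7 TPM in replicate 2, against coding sums of 2.56 to 33.0 and 1.67 to 25.4 TPM. They include Sugt1-205, Taf10-202, Ufm1-204, Dpm1-210, Lck-205, Parl-209, Trappc4-202, Ier3ip1-202, Eif2b2-206, Xpnpep1-217 and Dop1b-208.

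**Figure D2:**
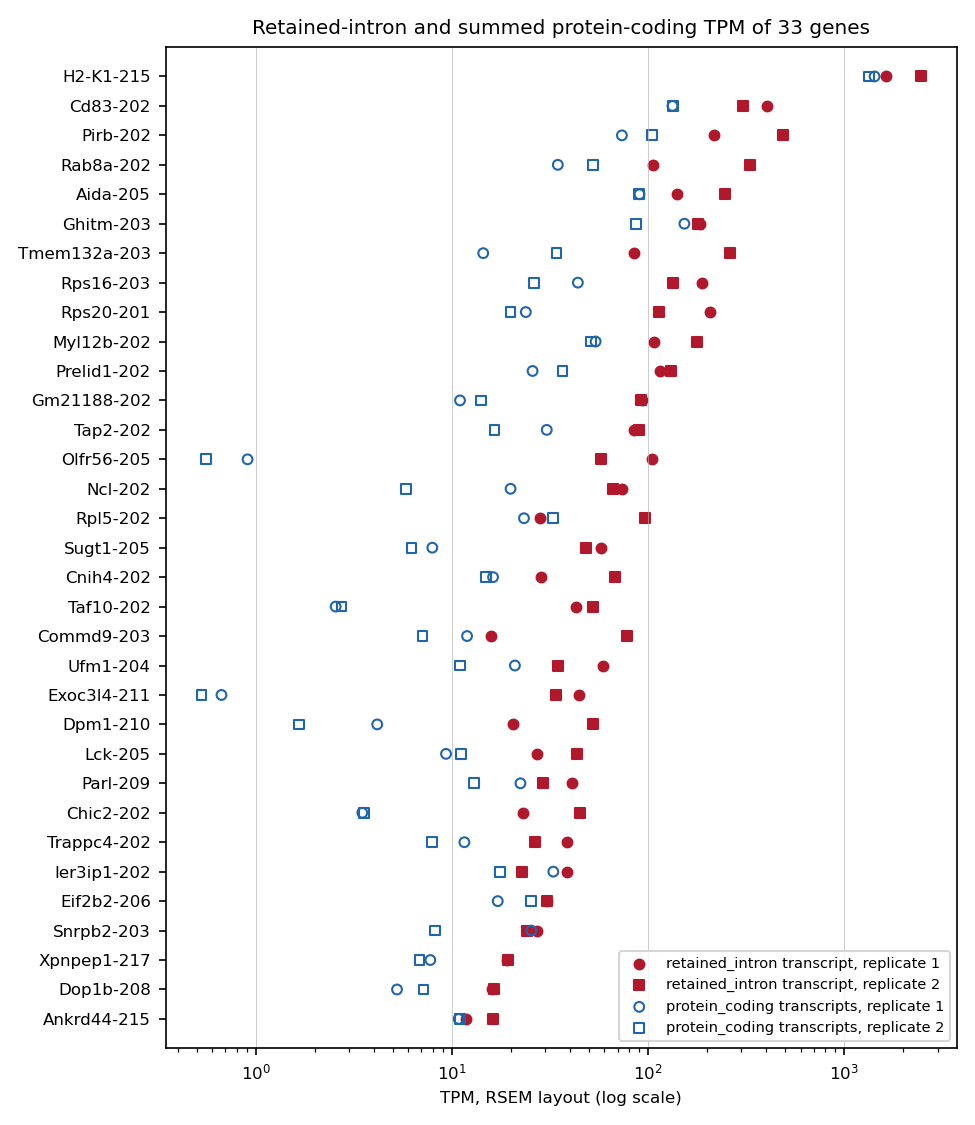
TPM of 33 of the 34 retained_intron transcripts (filled red) and of the summed protein_coding transcripts of the same genes (open blue) in replicate 1 (circles) and replicate 2 (squares), RSEM layout, on a log axis. H2-K1-215 stands highest at 1632 and 2468 TPM, and the widest distances between the retained and coding symbols are those of Olfr56-205 and Exoc3l4-211.

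Over the 34 members, retained TPM exceeded the coding sum in both libraries in all 34 in the first quantification, which the choice at 50% largely fixes. The median log2 ratio of retained over coding TPM was 1.51 in replicate 1 and 1.87 in replicate 2, with a pseudocount of 0.5 TPM. The median share of gene TPM was 67.0% and 75.5%, or 71.3% ± 6.0 (SD over libraries, n = 2). Just inside the limit, by the lower of the libraries, lay Snrpb2-203 at 50.02%, Aida-205 at 50.3% and Rpl5-202 at 51.2%. Just outside lay Usf2-207 at 49.1%, Vps16-202 at 48.8% and Itm2b-202 at 48.7%. Which genes pass depends on the library: 46 further retained_intron transcripts led in 1 library only, 41 of them in replicate 2 and 5 in replicate 1. The same rule gave 45 members from replicate 1 alone and 82 from replicate 2 alone. Of 2373 genes with 2 or more transcripts and a leading transcript at these limits, 2289 were led by a protein_coding one, 29 by a processed_transcript and 19 by one typed for nonsense-mediated decay.

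The second quantification, in the kallisto layout, was made from the same reads and was not used to choose the members. It gave a share of 50% or more in both libraries for 22 of the 34. Among leading transcripts of any type the corresponding share was 84.3% of 2373, and among leading protein_coding transcripts 84.5% of 2289. The members' count lies below that background, and the difference was not tested. In the RSEM layout, leading protein_coding transcripts had median shares of 91.6% and 90.9% in replicates 1 and 2, against 67.0% and 75.5% in the members. The background thus lay farther above the 50% limit, so it is an unlike set. Of the other 12 members, 7 were below 50% in replicate 1 alone, 1 in replicate 2 alone and 4 in both. The median share was 62.9% in replicate 1 and 74.8% in replicate 2, or 68.9% ± 8.4 (SD over libraries, n = 2), and the median log2 ratio of retained over coding TPM was 1.37 and 2.09. Retained TPM exceeded the coding sum in both libraries in 28 of the 34.

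The count was also taken by structure, with no test of the difference. All 8 members with a whole coding intron kept a share of 50% or more in both libraries, against 8 of the 12 that end inside an intron and 6 of the 14 that begin inside one. In that order, median RSEM-layout shares in replicate 1 were already unlike, at 79.0%, 64.7% and 57.3%. Median lengths were 1764.5, 490.5 and 776.5 bases, so structure cannot be told apart from distance to the limit or length. The highest kallisto shares were those of Exoc3l4-211 at 98.6% and 98.5%, Olfr56-205 at 96.5% and 96.0%, and Tmem132a-203 at 89.3% and 94.7%. Ncl-202 followed with 86.5% and 93.4%, and Chic2-202 with 85.4% and 93.5%. Cd83-202 had 70.5% and 63.6%, and Tap2-202 had 69.4% and 76.5%, each within 10 points of the first quantification.

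The lowest share was that of Rpl5-202, at 14.7% in replicate 1 and 10.02% in replicate 2, against 51.2% and 73.8% in the first quantification. Gene TPM of Rpl5 also differed, at 7.92 and 5.21 TPM in the kallisto layout and 54.8 and 132 TPM in the RSEM layout. Its retained transcript shares 68.9% of its 31-base stretches with transcripts of 14 other genes, and the part of that sharing in the gap was not tested. Ankrd44-215 had 36.3% and 40.7%, and H2-K1-215 had 34.9% and 59.8%. For H2-K1 the retained level was 784 and 2056 TPM in replicates 1 and 2 in the kallisto layout, against coding sums of 1370 and 1305 TPM, so the order of the levels turned between the libraries. Rps16-203 had 48.8% and 47.5%, and Aida-205 had 49.8% and 46.5%, both just below the limit.

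**Figure D3:**
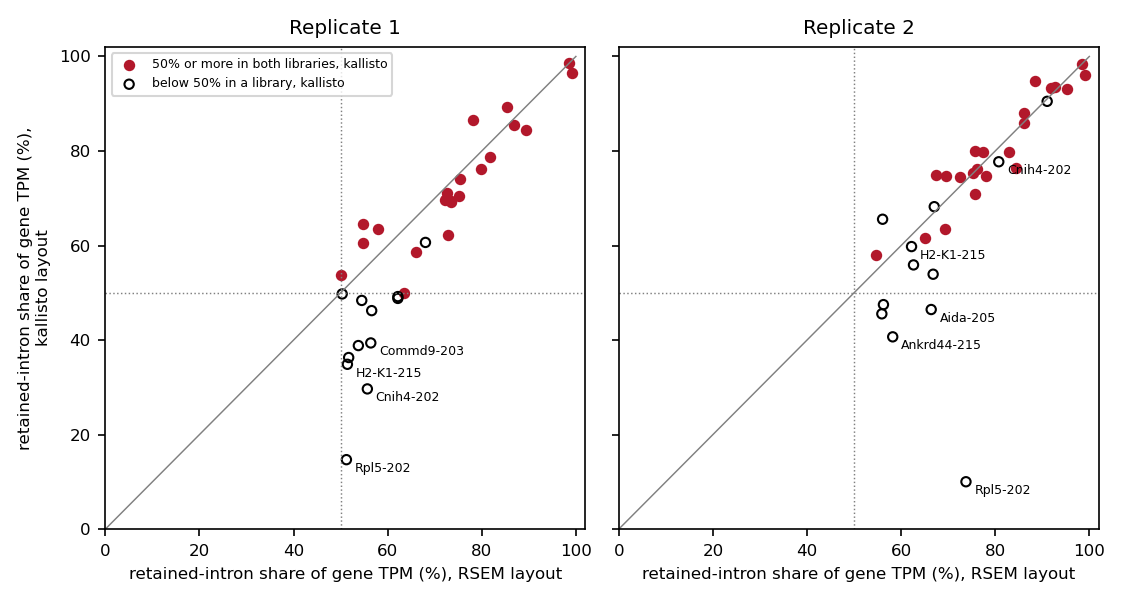
Retained-intron share of gene TPM (%) of the 34 members in the RSEM layout (horizontal axis) and the kallisto layout (vertical axis), 1 panel per library, with the diagonal as a solid line and 50% as dotted lines. Filled points are the 22 members at 50% or more in both libraries in the kallisto layout; Rpl5-202 lies far below the diagonal in both panels, at 14.7% and 10.02%.

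Applied to the kallisto layout alone, the rule gave 27 members. Of these 22 were shared, which is 64.7% of the 34 and 81.5% of the 27. Timm17a-204, Acadsb-207, Samm50-205 and Psd-214 entered with shares above 50% in the first quantification too. They are absent from the 34 through the floor of 20 TPM on the gene in that quantification, and not through the retained share. Il1rapl2-203 was at 100% in the kallisto layout and at 0 in the RSEM layout. These 5 were named after their values were seen.

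TPM divides counts by effective length, which is the transcript length reduced for the size of the sequenced fragments. Implied mean fragments were 280 and 247 bases in replicates 1 and 2, so the reduction takes a larger part of a short transcript. How far the lead of the short members rests on it was not tested. Of the 34 retained transcripts, 31 are shorter than the leading coding transcript of their gene. The median length of the 34 was 776.5 bases, against 2230 bases for 2289 leading protein_coding transcripts. It was 796 bases for the 6307 other retained_intron transcripts of these genes, so short length is not particular to the members. By estimated counts the members held less of the gene than by TPM, a median of 38.0% in replicate 1 and 47.6% in replicate 2 in the RSEM layout, and 32.7% and 40.2% in the kallisto layout. Leading protein_coding transcripts, an unlike set of longer transcripts, had median count shares of 95.9% and 95.5% in replicates 1 and 2 in the RSEM layout. For the next count no background was taken, so it is not read as particular to the members. In the RSEM layout, a count share of 50% or more in both libraries was found in 10 members. These were Cd83-202, Pirb-202, Tmem132a-203, Prelid1-202, Gm21188-202, Tap2-202, Olfr56-205, Ncl-202, Exoc3l4-211 and Trappc4-202, and 6 of them hold a whole intron. Cd83-202 held 72.2% of the gene's counts in replicate 1 and 66.0% in replicate 2. For Ufm1-204, a share of TPM of 73.5% and 75.8% rested on 6.92% and 8.79% of counts. H2-K1-215 held 13.7% and 22.2% of counts, and Rab8a-202 held 16.1% and 30.3%. The 14 members under 600 bases had a median count share of 14.3% in replicate 1 and 29.3% in replicate 2, and the 20 longer ones 50.3% and 61.9%.

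**Figure D4:**
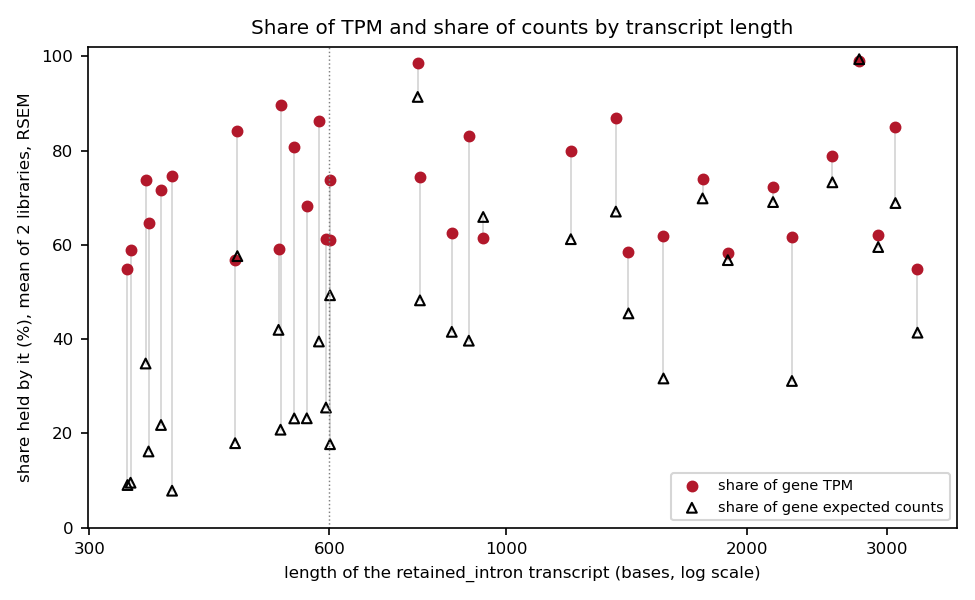
Share of gene TPM (filled red circles) and share of gene expected counts (open triangles) held by each retained_intron transcript, as the mean of 2 libraries in percent, against its length in bases on a log axis, with 600 bases dotted and a grey line joining the values of a transcript. The vertical distance is largest for the short transcripts, and the members above 600 bases include most of those with a count share over 50%.

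The libraries differed on these genes. The share of gene TPM was higher in replicate 2 in 26 of the 34 members in the RSEM layout and in 24 in the kallisto layout, 23 of them in both. Over all 463 retained_intron transcripts at 5% or more in both libraries, members included, 55.1% were higher in replicate 2. A rise of 10 points or more in replicate 2 was found in 14 members, against 26.1% of the 463, and a drop of that size in 1 member, against 12.7%. The median difference, replicate 2 minus replicate 1, was 6.36 points in the members and 1.32 points in the 463. The background values by length were as follows: 110 transcripts under 600 bases had a median of 4.57 points and 353 longer ones 0.46. Under 600 bases the members' median was 8.29 points, and at 600 bases or more 6.36 points. The members were chosen on this same share, which had to reach the limit of the choice in both libraries. Transcripts whose share crossed that limit between the libraries were thus left out. The 463 had to reach only 5%, and from a share near 5% a drop of 10 points is not possible. The share counts and medians of the sets are therefore not comparable, and no conclusion is drawn from them. The mean fragment length implied by the RSEM lengths was 280 bases in replicate 1 and 247 bases in replicate 2. Its part in the differences between the libraries was not tested.

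The largest differences in share were those of Commd9-203, at 56.4% in replicate 1 and 91.0% in replicate 2, Cnih4-202, at 55.7% and 80.8%, and Rpl5-202. The quantifier's own interval for Commd9-203 in replicate 1 was 83.2% of its TPM wide, and that for Cnih4-202 64.8%, so these values are loosely set. By contrast Cd83-202, Rps20-201, Prelid1-202 and Rps16-203 had lower shares in replicate 2, with differences of -3.68 to -6.41 points. Dop1b-208 fell by 12.13 points in replicate 2 relative to replicate 1. Retained TPM was higher in replicate 2 in 20 of the 34, against 52.1% of the 463, and the coding sum in 14, against 47.0% of the 2364 genes. The retained level was higher and the coding sum lower in 8 members, against 25.5% of the 463, and in 12 in the kallisto layout, against 29.2%. None of these counts is taken as particular to the members.

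For the genes as a whole, TMM-scaled counts differed by 1.5-fold or more between the libraries in 11 of the 34, with 7 higher and 4 lower in replicate 2. Over 12226 genes with enough counts 16.7% were higher and 19.1% lower by that size, so neither count is taken as particular to the members. Tmem132a was 3.2-fold higher in replicate 2, Rpl5 and Rab8a 2.1-fold and 2.0-fold, and Pirb 2.0-fold. For Rpl5 the direction turned in the kallisto layout, where its gene TPM was lower in replicate 2 (5.21 against 7.92 in replicate 1). Snrpb2 fell by 1.04 on the log2 scale, the lowest of the 34, and Olfr56 fell by 0.68. The median log2 ratio was 0.25 in the members and -0.01 over all genes, and its direction depends on the limits of the choice, since at a gene TPM floor of 10 it was -0.0028.

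**Figure D5:**
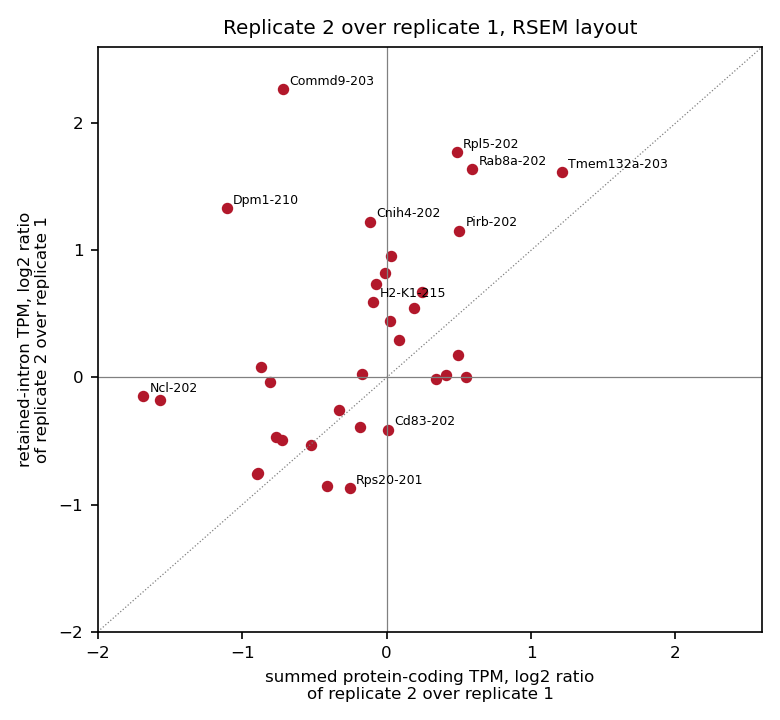
Log2 ratio of replicate 2 over replicate 1 for the retained_intron TPM (vertical axis) and the summed protein_coding TPM (horizontal axis) of the 34 members, RSEM layout, with a pseudocount of 0.5 TPM and the line of equal ratios dotted. Points above that line had a higher retained to coding ratio in replicate 2, which need not match the share where a gene has other transcripts; Commd9-203 and Dpm1-210 are higher on the retained side and lower on the coding side.

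Genes known for intron retention elsewhere were looked up in lists that cover splicing, RNA decay, the macrophage response and housekeeping. Of 44 genes of SR proteins and splicing regulators with a retained_intron transcript at the level of the rule, 0 were led by one, although Rsrp1-204 came to 48.1% in replicate 1 and 33.5% in replicate 2. In the core spliceosome 1 of 29 was led, Snrpb2, and among interferon-stimulated genes 1 of 47, Tap2. In the lists for nonsense-mediated decay (5 genes), nuclear RNA surveillance and export (5), other genes known for detained introns (11) and NF-kB and inflammatory genes (38), 0 were led. The same held for lysosome and phagocyte genes (40), translation factors (28) and metabolic enzymes (27). The list of translation factors holds no ribosomal protein gene and not Eif2b2, so the members Rps20, Rps16, Rpl5 and Eif2b2 are outside it. The members H2-K1 and Cd83 are likewise in none of the lists, those for interferon-stimulated, NF-kB and inflammatory genes included. With 1.44% of all 2364 genes led, counts of 0 or 1 in lists of these sizes are near the background and show nothing particular to a list. Ccnl2-205 reached 45.3% and 33.6% among the detained-intron genes and Sod2-204 38.3% and 37.8% among the inflammatory ones. Npc1-206 reached 43.9% in replicate 1 and 52.1% in replicate 2 among the lysosome and phagocyte genes. The median share of all retained_intron transcripts of a gene, summed, was 6.99% in the splicing regulators and 10.7% in the genes known for detained introns, against 1.83% over all 2364 genes. Other lists were above it too: interferon-stimulated genes at 5.705%, RNA surveillance and export at 4.74%, nonsense-mediated decay at 4.325%, core spliceosome at 3.9% and NF-kB at 3.725%. Lysosome and phagocyte genes at 1.66%, metabolic enzymes at 1.055% and translation factors at 0.635% were below it. Summed in this way, 63 of the 2364 genes came to 50% or more.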

How the data were processed

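The authors deposited per library a gene table and a transcript table in the column layout of RSEM and a second transcript table in that of kallisto, on mm10 with GENCODE M21, per the file headers and accompanying notes. Which aligner and quantifiers were run is not given in the sources used here. Deposited expected counts are not normalized. Deposited TPM and FPKM values are scaled to effective length and library, and the deposited percent column gives a transcript's share of gene TPM. Other deposited bounds are the quantifier's interval.

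Members, gene lists and tests were chosen with earlier results of these data known. Named members are the 12 highest, the 5 highest and 5 lowest kallisto shares, the 3 largest library differences, those next to the limit and those in a list. Others were named after their values were seen, and 1 member is counted but not reported here by name. Sequences and structure came from the GENCODE M21 files, and 31-base stretches were matched on either strand.

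Expected counts were rounded, filtered with filterByExpr and scaled by TMM in edgeR 4.0.16 (R 4.3.3, prior count of 2). This step and the structure step were tested on simulated data. With 1 group of 2 libraries no p-value was computed. Alternatives included DESeq2 size factors.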

Additional observations from a re-analysis of the deposited data

How the results depend on the processing

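The limits of the choice moved the counts and medians, as fewer or more transcripts then qualify. A gene TPM floor of 50 left 19 members. Of these 14 kept the lead in the kallisto layout and 6 differed by 1.5-fold between the libraries. The median log2 ratio of retained over coding TPM was then 1.96 in the RSEM layout, and the count shares were 50.8% (RSEM) and 50.5% (kallisto). A share of 40% or more gave 55 members, with median TPM shares of 61.0% (RSEM) and 56.2% (kallisto), log2 ratios of 1.13 and 1.04, count shares of 29.9% and 25.4%, and 17 genes at 1.5-fold. A share of 60% or more gave 18 members, with a median TPM share of 79.5% (RSEM), log2 ratios of 2.41 and 2.36, count shares of 50.5% and 50.8%, and 5 genes at 1.5-fold.

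With replicate 1 or 2 left out, the members numbered 45 to 82, and 29 to 64 led in the kallisto layout. Median TPM shares were 62.2% to 64.4% (RSEM) and 60.5% to 63.5% (kallisto), log2 ratios 1.11 to 1.48 and 1.22 to 1.26, and count shares 29.8% to 35.8% and 27.8% to 30.6%. The higher counts came from replicate 2 alone.

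The median library ratio of member genes was 0.25 on the log2 scale as reported. It was -0.0028 at a floor of 10 TPM, 0.036 and 0.033 at shares of 40% and 60%, and 0.069 with total counts, a scaling that moved the median of all genes to -0.19. Gene TPM moved that median to -0.12, and the members stood at 0.23.

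Chosen after seeing the data, the 8 members with a whole intron had median TPM shares of 81.4% (RSEM) and 77.8% (kallisto) and a count share of 63.5%, and 8 of 8 led in the kallisto layout. The 18 members with 10% or less of their 31-base stretches in other genes had a count share of 34.7%, and 11 of them led there. Of 91 values under an alternative, 50 stayed within the limit set for their kind. Counts were held to 1.5-fold, and shares and retained over coding ratios to their spread between the libraries. The median library ratio had a fixed limit on the log2 scale. The median share difference was held to the spread of the RSEM-layout TPM share. FPKM, other pseudocounts and other sums of coding or retained transcripts moved no median by more than its library spread. No paired analysis was possible because there is 1 group.

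Files of per-base coverage or splice junctions were not used here, so the levels rest on how each quantifier divided reads between overlapping transcripts. How far this limits each member was not ranked.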
